A study of Rattus norvegicus with 6 samples.

Results

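Expressed long intergenic noncoding RNA (lincRNA) genes were examined as a group. Members were selected on their gene type and on their summed reads: a row of the deposited count table was taken where its type was lincRNA and its raw counts over the 6 libraries summed to at least 60. This gave 203 of 1286 lincRNA rows, in a table of 20609 genes. The sum was taken over both groups together, so the totals of the members describe the choice and are not a finding.

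The libraries are labelled as PC12, a cell line from a rat pheochromocytoma, which is a tumor of the adrenal medulla. The question was how PCBP1 overexpression changed RNA levels. Cells of 3 control libraries had received a control plasmid and cells of 3 PCBP1-OE libraries a PCBP1 plasmid, which the methods describe as tagged with EGFP and introduced with a lipid reagent. Poly-A RNA was sequenced, so noncoding RNAs without a poly-A tail are largely outside these data. As a model the comparison is limited to 1 cell line with a tagged protein made from a plasmid, in a state the study calls stable overexpression in 1 place and transfection in another. The time between transfection and harvest is not given for RNA-seq in the sources used here. PCBP1 itself is not analysed here, and no value below checks its overexpression. Summed over all genes, control held 20268725, 21256970 and 22315623 counts, and PCBP1-OE held 21367196, 19822383 and 19730209. The study calls the libraries biological replicates, but the labels do not say that they came from separate cultures, and p-values then measure only the spread between these samples.

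A lincRNA is made by RNA polymerase II from a gene that lies between protein-coding genes, and most are capped, spliced and poly-adenylated like an mRNA without being translated. Many stay in the nucleus, and unstable ones are degraded there by the RNA exosome. PCBP1 is an RNA-binding protein with KH domains that binds stretches rich in C, so RNAs of any gene type can be among its ligands.

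The labelled cell type was compared with its defining markers before the results were read. Of 10 markers of chromaffin and catecholamine cells, 9 were in the table, and 7 of these had a mean below 1 CPM, the read count scaled to library size, here with the TMM method of edgeR. Th, the rate-limiting enzyme of catecholamine synthesis, was the marker with the most reads, with 141, 185 and 175 counts in control and 151, 161 and 164 in PCBP1-OE. Dbh, which makes noradrenaline from dopamine, had 5, 1 and 4 counts in control and 1, 0 and 1 in PCBP1-OE. Chga, which encodes the granule protein chromogranin A, had 0, 0 and 2 counts against 0, 0 and 3. The defining markers of PC12 cells were therefore mostly at or near 0, while Sox10, a transcription factor of neural crest and glial cells, had 7635, 8515 and 9007 counts in control and 7975, 7565 and 7160 in PCBP1-OE. Over the 4 glial markers the summed level was 401, 421 and 414 CPM in control and 374, 387 and 376 CPM in PCBP1-OE. Over the fibroblast markers, 3 of 4 in the table and led by Pdgfra, it was 226, 228 and 223 CPM against 209, 199 and 211 CPM. The 4 leukocyte markers, led by Cd68, summed to 6.83, 7.76 and 6.82 CPM in control and 6.21, 6.19 and 6.12 CPM in PCBP1-OE. All 3 sums were lower in all PCBP1-OE libraries than in all control libraries. Sox10 and Pdgfra, which make up most of the glial and fibroblast sums, missed an FDR of 0.05, with adjusted p of 0.079 and 0.0644 in the quasi-likelihood test of edgeR with Benjamini-Hochberg adjustment. Alb of hepatocytes came to at most 0.287 CPM in a library and Cdh5 of endothelium to at most 0.446 CPM. PC12 is thus the name on the labels and not one that these markers bear out. The part of these markers in the values of the lincRNA genes was not tested, and in such bulk libraries fewer cells of a type and less RNA per cell cannot be told apart.

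Reads on lincRNA genes were a small and steady share of each library. All 1286 lincRNA rows together took 32053, 33926 and 33391 counts in control and 35120, 31919 and 32246 in PCBP1-OE. As a share of all counts on genes this was 0.158%, 0.160% and 0.150% in control, a mean of 0.156% ± 0.00538 (SD, n = 3). In PCBP1-OE it was 0.164%, 0.161% and 0.163%, a mean of 0.163% ± 0.00172 (SD, n = 3). The PCBP1-OE libraries lay above the control libraries without overlap, by 0.00715 percentage points between the means, and the control library furthest from the others was replicate 3. Without that library the difference was 0.00407 points. A lincRNA row was detected with at least 1 count in 705, 717 and 704 cases in the control libraries and in 758, 762 and 716 cases in the PCBP1-OE libraries. The numbers of rows overlapped, since control replicate 2 exceeded PCBP1-OE replicate 3.

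Most lincRNA reads fell on few genes. The gene with the most reads took 10.5% of all lincRNA counts, the first 3 took 25.5%, the first 9 took 54.3% and the 203 members together took 95.4%. These are shares of reads and not levels per length, which the deposited table does not allow. The sums of the members ran from 60 to 20934 counts with a median of 169, and 56 members had 60 to below 100 counts, 80 had 100 to below 300, 39 had 300 to below 1000 and 28 had 1000 or more. Of the other lincRNA rows, 1083 in number, 673 had fewer than 6 counts in all. Just inside the limit were AABR07033249.1, with 13, 12 and 6 counts in control and 7, 7 and 15 in PCBP1-OE, and AABR07057519.1, with 8, 5 and 10 against 14, 18 and 5. Just outside it, each with a sum of 59, were Rn60_2_2049.3, with 3, 7 and 15 counts against 10, 14 and 10, and AABR07005779.3, with 5, 6 and 10 against 13, 17 and 8. The groups overlapped in all 4.

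The members were almost all known by a position in the assembly and not by a function. Of 203 symbols, 160 were names of AABR07 contigs, 21 were Rn60 codes, 15 were names of clones, 6 were LOC or RGD numbers and 1 was a gene symbol, Dmrtc1b. A description stood beside 7 of them. Chromosome 1 held 22 members, 10.8% of them, and 12.6% of the protein-coding genes with the same sum. Chromosome X held 15, 7.39% of the members, beside 2.99% of those protein-coding genes. These shares are a description, with no test of the difference.

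A fixed list of 63 named long noncoding RNAs, among them Malat1, Neat1, Meg3 and Xist, had 1 symbol in the deposited table. It was Snhg11, which the table lists as protein-coding, with 1, 2 and 0 counts in control and 2, 3 and 2 in PCBP1-OE. None of the 63 symbols was a member, and the others are not analysed here. The search was by symbol only, and most members carry contig, code or clone names. A missing symbol therefore does not show that its RNA was absent.

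Among the 12 members with the highest mean CPM, LOC102549726 (ENSRNOG00000054031, chromosome 20) had the most reads. It had 3359, 3374 and 3543 counts in control and 3738, 3377 and 3543 in PCBP1-OE, or 163 ± 6.87 CPM (SD, n = 3) and 173 ± 7.23 CPM. Its groups overlapped, with a log2 fold change of 0.08 ± 0.049 (SE) and an adjusted p of 0.323 in the quasi-likelihood test of edgeR with Benjamini-Hochberg adjustment. In the RefSeq annotation of the rat assembly GRCr8, a symbol or synonym was found for 5 of 203 members, and 4 of these are lncRNAs there. LOC102549726 lies between Hspa1b, a heat shock protein gene, and Neu1, a lysosomal sialidase gene, and overlaps the small nucleolar RNA genes Snord48 and Snord52. Reads of overlapping genes may be assigned to either gene, so its counts are uncertain to that extent. Hspa1b, with a log2 fold change of -0.14, and Neu1, with 0.01, were not called, with adjusted p of 0.662 and 0.970 in the same edgeR test with Benjamini-Hochberg adjustment.

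The promoter of this gene is shown because no other lincRNA gene had as many reads, and that of RGD1565058, a member with 603 counts, is shown for comparison. Both are RefSeq sequences of GRCr8, from 250 bases before the start of the gene to 50 bases after it, at chr20:3880958-3881257 on the plus strand and chrX:66197160-66197459 on the minus strand. Capitals mark matches on either strand to the letters TATAAA, as in a TATA box, GGGCGG, a GC box, or GAAANNGAA, the core of an interferon-stimulated response element, which reads TTCNNTTTC on the other strand.
LOC102549726: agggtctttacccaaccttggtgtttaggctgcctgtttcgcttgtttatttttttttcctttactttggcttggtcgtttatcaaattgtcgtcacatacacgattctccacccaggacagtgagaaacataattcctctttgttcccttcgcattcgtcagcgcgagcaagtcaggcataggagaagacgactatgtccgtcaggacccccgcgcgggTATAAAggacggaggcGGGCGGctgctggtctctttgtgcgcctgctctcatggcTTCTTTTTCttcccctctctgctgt
RGD1565058: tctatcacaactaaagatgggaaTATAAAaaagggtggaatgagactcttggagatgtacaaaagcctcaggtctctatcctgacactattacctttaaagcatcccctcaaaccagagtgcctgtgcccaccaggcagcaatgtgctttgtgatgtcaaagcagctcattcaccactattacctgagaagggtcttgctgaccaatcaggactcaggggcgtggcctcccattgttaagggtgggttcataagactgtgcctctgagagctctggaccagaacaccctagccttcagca
In LOC102549726 the letters TATAAA began at position -30 from the first base of the gene, GGGCGG at -14 and the match to GAAANNGAA at 25. In RGD1565058 the only match was TATAAA at -227. The first promoter held 17 CpG dinucleotides and 50.3% G and C, the other 1 CpG and 48.3%, beside a median of 51.7% over all promoters. Of 33469 rat promoters of this length, 14.2% held TATAAA, 33.1% GGGCGG and 9.71% GAAANNGAA, so that each match is a description of these letters only.

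Rn60_13_0828.1 (ENSRNOG00000049537, chromosome 13) had 2783, 2853 and 3076 counts in control and 2824, 2574 and 2407 in PCBP1-OE, or 138 ± 2.90 and 126 ± 2.89 CPM (SD, n = 3). In CPM all 3 PCBP1-OE libraries lay below all 3 control libraries, but the log2 fold change of -0.13 ± 0.043 (SE) had an adjusted p of 0.0641 in the quasi-likelihood test of edgeR with Benjamini-Hochberg adjustment. Over 14 other settings that p ran from 0.0392, without control replicate 3, to 0.271. AABR07006957.1 (ENSRNOG00000061600, chromosome 1) had 588, 580 and 409 counts in control and 661, 636 and 628 in PCBP1-OE. Here control replicate 3 was low, at 18.2 CPM against 29.96 and 27.8 CPM in the other controls, and the smallest PCBP1-OE value, 29.97 CPM, lay just above the largest control value. Its log2 fold change of 0.30 ± 0.14 (SE) had an adjusted p of 0.161 in the same edgeR test with Benjamini-Hochberg adjustment, and without control replicate 3 it was 0.11. It was called in 1 of 14 other settings, with no filter, where the edgeR test with Benjamini-Hochberg adjustment gave 0.00308 in a range up to 0.312. AABR07052758.1, Rn60_14_0846.1, AABR07019088.1, Rn60_X_0746.3, AABR07053749.1, AC105470.1 and AABR07043829.2 had overlapping groups and log2 fold changes from -0.08 to 0.03, none of them called. The sign of 5 of these 7 turned in at least 1 other setting, and AABR07052758.1 was called without control replicate 3, at an adjusted p of 0.0459 in a range up to 0.949 by edgeR with Benjamini-Hochberg adjustment. The remaining members of the 12, Rn60_1_1359.1 and AABR07051787.1, were called and are described next.

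**Figure D1:**
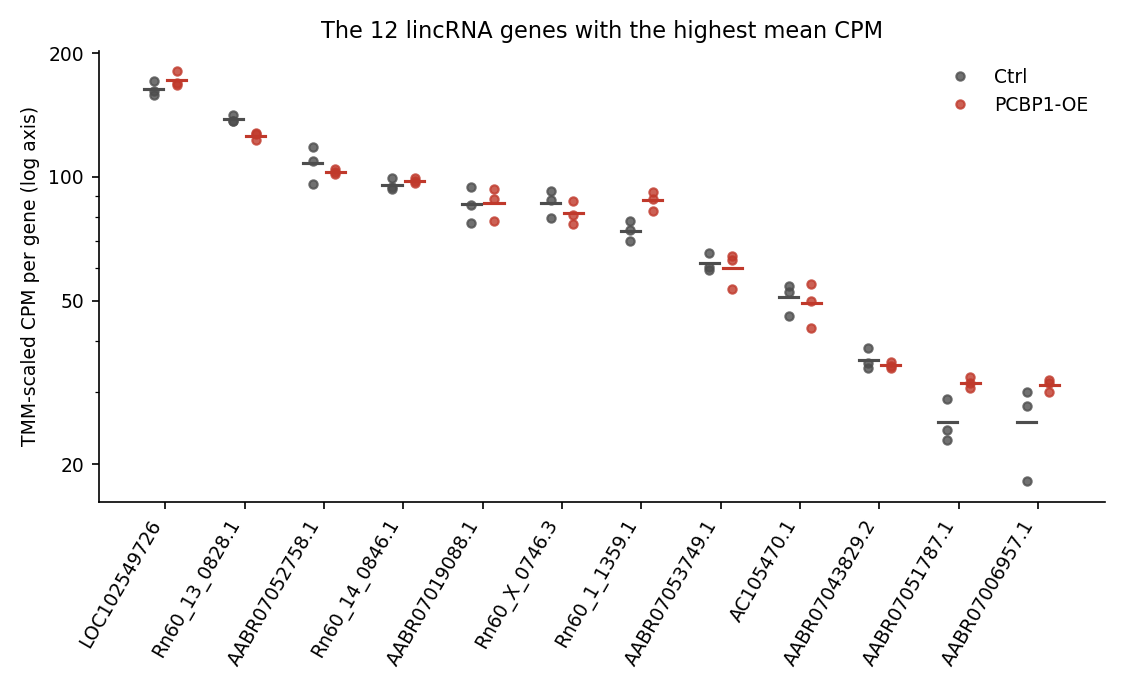
TMM-scaled CPM on a log axis for the 12 lincRNA genes with the highest mean, with 1 point per library and a bar at each group mean (n = 3). The groups of most genes lie on each other, Rn60_1_1359.1 and AABR07051787.1 lie higher in PCBP1-OE, and 1 control point of AABR07006957.1 lies apart at 18.2 CPM.

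PCBP1-OE and control differed at few lincRNA genes. A total of 199 members had enough reads for the test, and 4 had not: AABR07015522.1, AABR07057519.1, AABR07067885.1 and AABR07030890.1, with sums of 60, 60, 66 and 63. Of the 199 tested, 4 passed an FDR of 0.05 (2.01%), 3 higher in PCBP1-OE (1.51%) and 1 lower (0.503%). Over all 12624 genes tested, 9.45% passed, 4.45% higher and 5% lower. At an FDR of 0.05 and a 2-fold change, the limits for a DEG, 1 member passed, against 0.19% of all genes tested. An unadjusted p below 0.05 was found for 19 members (9.55%), against 28.4% of all genes tested.

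AABR07058985.2 (ENSRNOG00000059271, chromosome 4) was the member that met both limits. It had 22, 22 and 26 counts in control and 65, 56 and 45 in PCBP1-OE. Every PCBP1-OE library held more reads than every control library, although PCBP1-OE replicate 3 was nearer to the controls than the others. The level went from 1.11 ± 0.0534 CPM to 2.67 ± 0.337 CPM (SD, n = 3), a log2 fold change of 1.26 ± 0.22 (SE) with an adjusted p of 0.00961 in the quasi-likelihood test of edgeR with Benjamini-Hochberg adjustment. Over 14 other settings the same adjusted p ranged from 4.24e-05 to 0.0891 in the edgeR, DESeq2 and limma-voom fits with Benjamini-Hochberg adjustment, and with 1 library left out it missed 0.05 without control replicate 2 (0.0669) and without PCBP1-OE replicate 1 (0.0558). The log2 fold change stayed between 1.19 and 1.37. A neighbour on the same contig, AABR07058985.1, had 8, 11 and 9 counts in control and 9, 11 and 15 in PCBP1-OE. Its groups overlapped, with a log2 fold change of 0.35 ± 0.41 (SE) that was not called.

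Rn60_1_1359.1 (ENSRNOG00000051039, chromosome 1) had 1456, 1634 and 1567 counts in control and 1826, 1781 and 1805 in PCBP1-OE. The groups did not overlap, and the level rose from 74.1 ± 4.20 to 87.7 ± 4.66 CPM (SD, n = 3). The log2 fold change was 0.24 ± 0.056 (SE), with an adjusted p of 0.0220 in the quasi-likelihood test of edgeR with Benjamini-Hochberg adjustment and a range of 0.000853 to 0.12 over 14 other settings. It missed 0.05 in that edgeR test with Benjamini-Hochberg adjustment without control replicate 1 (0.0677) or 2 (0.0664), and likewise without PCBP1-OE replicate 2 (0.0842) or 3 (0.0565).

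AABR07051787.1 (ENSRNOG00000059243, chromosome 3) had 477, 480 and 649 counts in control and 694, 619 and 640 in PCBP1-OE. The raw counts overlapped, since control replicate 3 was high in a deep library, while the CPM of 24.3, 23.0 and 28.9 in control and 31.5, 30.7 and 32.6 in PCBP1-OE did not. The log2 fold change was 0.31 ± 0.086 (SE), with an adjusted p of 0.0409 in the quasi-likelihood test of edgeR with Benjamini-Hochberg adjustment and a range of 0.00128 to 0.178 over 14 other settings. Leaving out control replicate 3 gave the lowest of these, and leaving out any other library ended the call in the same edgeR test with Benjamini-Hochberg adjustment. It was 0.137 without control replicate 1 and 0.178 without control replicate 2. Among the PCBP1-OE libraries, omission of replicate 1 gave 0.138, of replicate 2 gave 0.109 and of replicate 3 gave 0.0901 in that edgeR test with Benjamini-Hochberg adjustment.

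AABR07049695.3 (ENSRNOG00000052757, chromosome 5) was the called member that fell. It had 571, 630 and 540 counts in control and 471, 472 and 428 in PCBP1-OE, so that all PCBP1-OE libraries were lower. The level went from 27.8 ± 3.26 to 22.2 ± 1.06 CPM (SD, n = 3), a log2 fold change of -0.32 ± 0.092 (SE) with an adjusted p of 0.0455 in the quasi-likelihood test of edgeR with Benjamini-Hochberg adjustment. Over 14 other settings the adjusted p ran from 0.00158 to 0.208 with Benjamini-Hochberg adjustment. In the edgeR test it missed 0.05 with upper-quartile scaling (0.0569), which left 3 called members higher and 0 lower, and it missed 0.05 in limma-voom (0.0512). It also missed 0.05 in the edgeR test without control replicate 1 (0.166) or 2 (0.208) and without PCBP1-OE replicate 1 (0.170), 2 (0.101) or 3 (0.0984). The neighbour AABR07049695.2 had 46, 46 and 51 counts in control and 56, 48 and 56 in PCBP1-OE, higher in all PCBP1-OE libraries in CPM, with a log2 fold change of 0.19 ± 0.19 (SE) that was not called.

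**Figure D2:**
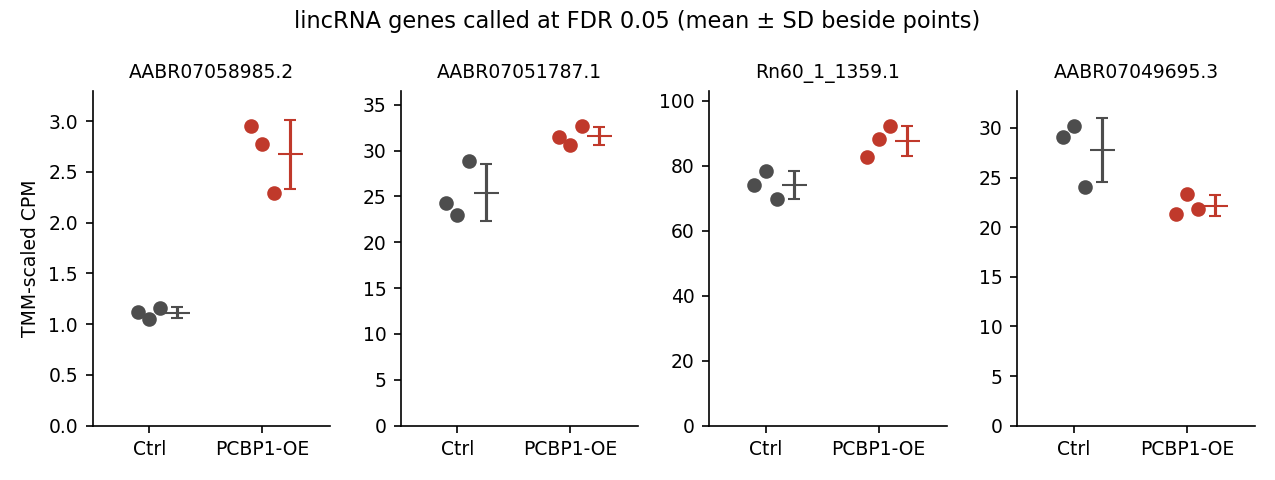
TMM-scaled CPM, from 0, of the 4 lincRNA genes called at an FDR of 0.05, with 1 point per library and the group mean ± SD beside the points (n = 3). AABR07058985.2 went from 1.11 to 2.67 CPM, while the other 3 genes moved by a log2 fold change of 0.31, 0.24 and -0.32.

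The number of called members moved with the libraries used. Without control replicate 3 there were 10, of which 4 were higher and 6 lower and which included the 4 above. Without control replicate 2 the edgeR test called 0, with an unadjusted p below 0.05 for 11 members, without control replicate 1 there was 1, and without PCBP1-OE replicate 1, 2 or 3 there were 1, 1 and 2. The number for all genes moved too, from 1193 to 2860 without control replicate 3 and to 48 without control replicate 2. Control replicate 3 had the lowest CPM of the 6 libraries for 63 of 203 members and the highest for 14, while PCBP1-OE replicate 3 had the highest for 57 and the lowest for 23. Each of the other 4 libraries was highest for 28 to 37 members and lowest for 22 to 32.

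The log2 fold changes of the 199 tested members ran from -0.70 to 1.26, and 3 of them were at least 2-fold in size. The median was 0.07, beside 0.0029 over all genes tested, and 113 members (56.8%) had a value above 0, beside 50.5% of all genes tested. In both gene types the median lay above 0 at low sums. At sums of 60 to below 100 the median was 0.12 in lincRNA and 0.10 in protein-coding genes, and at sums of 100 to below 300 it was 0.09 and 0.11. At 300 to below 1000 the medians were -0.0075 and 0.10, and at 1000 or more -0.03 and -0.02. Without control replicate 3 the median of the members was 0.017, without PCBP1-OE replicate 3 it was 0.039, and with a filter of at least 1 CPM in 3 libraries it was 0.024. Without control replicate 1 or 2 it was higher, at 0.113 and 0.103. In each library the median deviation from a gene's own mean was 0.02, -0.0059 and -0.09 in control and 0.01, 0.02 and 0.04 in PCBP1-OE. The library that stood lowest was control replicate 3, and the median went down or up with the library left out.

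**Figure D3:**
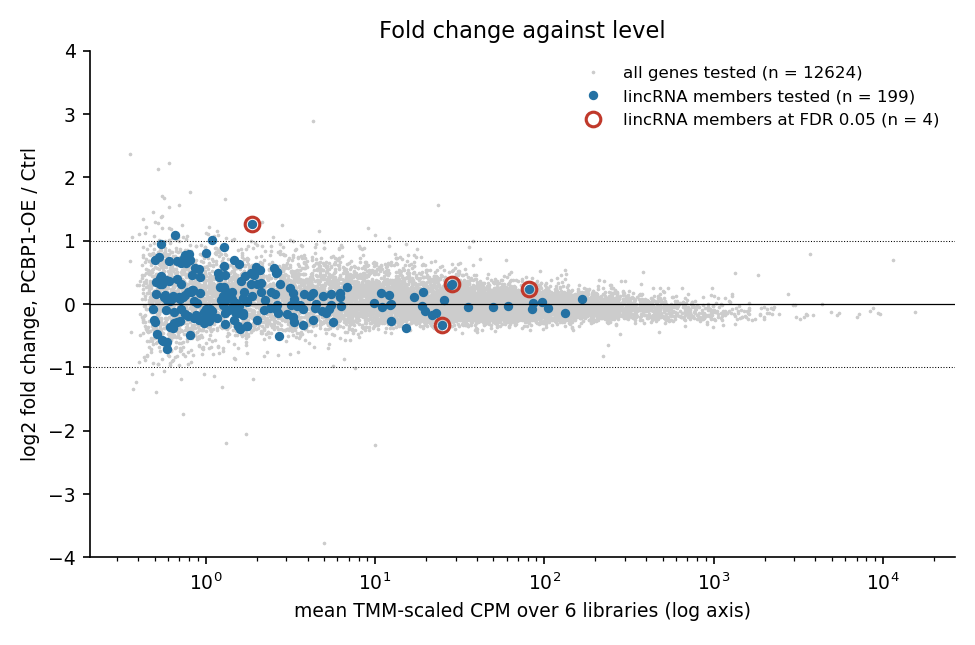
Log2 fold change of PCBP1-OE against control over the mean TMM-scaled CPM (log axis) for all 12624 genes tested in grey and the 199 lincRNA members in blue, with the 4 called members ringed and dotted lines at 2-fold. The members sit mostly at low CPM, where the fold changes of all genes spread widely.

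In 28 tested members (14.1%) the groups did not overlap in CPM, beside 30.6% of all genes tested. Of these, 22 were higher in PCBP1-OE (11.1% of the members) and 6 lower (3.02%), while among all genes tested 14.1% were higher without overlap and 16.5% lower. In protein-coding genes more were higher than lower at sums below 1000, and more were lower at 1000 or more. At sums of 60 to below 100, 5 lincRNA genes were higher and 0 lower, beside 59 and 18 protein-coding genes. At 100 to below 300 it was 10 and 0 beside 123 and 53, at 300 to below 1000 it was 4 and 3 beside 271 and 104, and at 1000 or more it was 3 and 3 beside 1266 and 1871. The share without overlap in either direction rose with the number of reads in both gene types. It was 9.62% of lincRNA and 13.3% of protein-coding genes at sums of 60 to below 100, 12.5% and 14.9% at 100 to below 300, 17.9% and 24.2% at 300 to below 1000, and 21.4% and 35.9% at 1000 or more. At an FDR of 0.05, 3 of 28 lincRNA genes (10.7%) with sums of 1000 or more were called, beside 12.4% of protein-coding genes, and 1 of 80 (1.25%) with 100 to below 300, beside 1.10%. Of 52 members with 60 to below 100 counts and 39 with 300 to below 1000, 0 were called by edgeR's quasi-likelihood test, where an unadjusted p below 0.05 was found for 2 and 3 of them. DESeq2, edgeR's exact test and limma-voom called 0 in both ranges too, and DESeq2 gave an adjusted p for 0 members of the lowest range. Protein-coding genes in these ranges were called at 0.347% and 5.11%.

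Several members with large fold changes missed the threshold. AABR07052388.1 and AABR07035796.1 are described because they stand, as AABR07058985.2 does, in the study's list of changed genes, which was made from these same libraries, so their choice was not independent of the values. AABR07052388.1 had 11, 13 and 22 counts in control and 43, 32 and 17 in PCBP1-OE, and the groups overlapped because PCBP1-OE replicate 3 was below control replicate 3. Its log2 fold change was 1.02 ± 0.35 (SE), with an adjusted p of 0.0817 in the quasi-likelihood test of edgeR with Benjamini-Hochberg adjustment. It passed 0.05 in 3 of 12 other settings that gave it an adjusted p, namely with no filter, in the exact test and without control replicate 3, and its adjusted p ranged from 0.0241 to 0.316 in the edgeR and limma fits with Benjamini-Hochberg adjustment. AABR07035796.1 had 14, 5 and 7 counts against 18, 19 and 18, without overlap, and a log2 fold change of 1.09 ± 0.41 (SE) with an adjusted p of 0.103 in the same edgeR test with Benjamini-Hochberg adjustment. In AABR07035796.1 the PCBP1-OE libraries were close to each other and the control libraries were not. The log2 fold change of this gene ran from 0.823 without control replicate 2 to 1.67 without control replicate 1. It was called in 0 of 12 other settings that gave it an adjusted p. These values ranged from 0.0559 to 0.315 in the edgeR and limma fits with Benjamini-Hochberg adjustment. AABR07019086.1 had 22, 17 and 17 counts against 35, 46 and 22, which did not overlap in CPM, and its log2 fold change of 0.89 ± 0.31 (SE) had an adjusted p of 0.0842 in that edgeR test with Benjamini-Hochberg adjustment. It was called in 1 of 13 other settings that gave it an adjusted p, with no filter, at 0.0358 in a range up to 0.324 by edgeR with Benjamini-Hochberg adjustment. The other 2 lincRNA rows of the study's list lay below the sum of 60 and were not members. AABR07028795.2 had 0, 3 and 5 counts in control and 9, 10 and 9 in PCBP1-OE, and AABR07012711.1 had 10, 5 and 2 against 0, 1 and 1. Neither had enough reads for the test, and at these counts no fold is given.

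No member had more than 50% of its counts in 1 library, 0 of 203 in raw counts and 0 of 203 in CPM. An equal share would be 16.7%, and the largest share of a member had a median of 21.5%. Among all 12558 genes with the same sum, 16 exceeded 50% (0.127%): 10 of 12066 protein-coding genes, 5 of 21 miRNA genes and 1 of 4 rRNA genes. The largest share in a lincRNA gene was 33.3%, in AABR07039206.1 on chromosome X, which had 11, 8 and 5 counts in control and 21, 8 and 10 in PCBP1-OE. There PCBP1-OE replicate 1 stood alone, and the other libraries of both groups overlapped. AABR07037528.1, also on chromosome X, followed with 31.5%, from 20, 10 and 4 counts in control and 13, 29 and 16 in PCBP1-OE. AABR07052388.1 had 31.2% in PCBP1-OE replicate 1, and AABR07063613.1 had 30.3%, from 7, 17 and 11 counts against 19, 27 and 8. These 4 exceeded 30%, a limit set after the values were seen. Next came AABR07057519.1 and AC098750.5 with 30% each, AABR07066838.1 with 29.3% and AABR07019086.1 with 28.9%, and of these 8 members only AABR07019086.1 had groups that did not overlap. At sums of 60 to below 100, 3 of 56 lincRNA genes (5.36%) and 74 of 607 protein-coding genes (12.2%) exceeded 30%. At sums of 20 to 59, 39 of 146 lincRNA rows (26.7%) did.

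**Figure D4:**
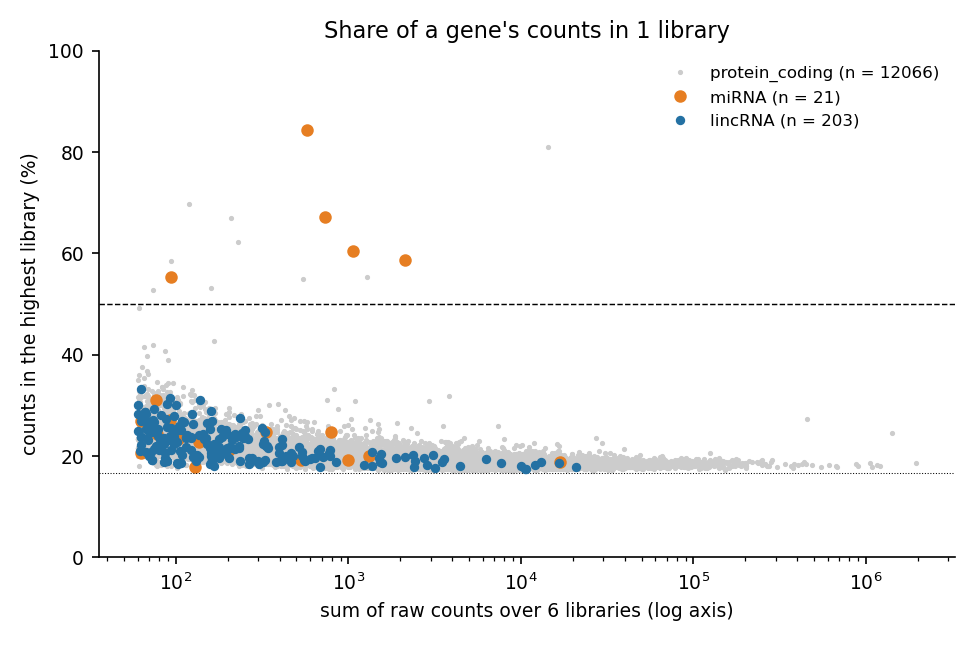
Percent of a gene's raw counts that lay in its highest library over its summed counts (log axis), for 203 lincRNA, 21 miRNA and 12066 protein-coding genes with a sum of at least 60, with a dashed line at 50% and a dotted line at the equal share of 16.7%. All lincRNA genes lie at or below 33.3%, and 5 miRNA genes lie above 50%.

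At sums below 1000 the spread between replicates in lincRNA genes was close to that in protein-coding genes. At 1000 or more it was larger in lincRNA genes. The median biological coefficient of variation, which edgeR estimates as the relative spread beyond counting error, was 0.151 over the tested members and 0.0683 over all genes tested. At sums of 60 to below 100 it was 0.170 in lincRNA and 0.177 in protein-coding genes, at 100 to below 300 it was 0.157 and 0.155, and at 300 to below 1000 it was 0.123 and 0.122. At 1000 or more it was 0.0776 and 0.0529. The median sum there was 2990 in lincRNA and 5950 in protein-coding genes, and its part in this difference was not tested. The relative SD of CPM in members with 60 to below 100 counts had a median of 31.3% in control and 31.3% in PCBP1-OE, where counting error alone would give 28.3%. In members with 1000 or more counts it was 10.2% in control and 5.58% in PCBP1-OE, with 4.49% from counting error. Most of the spread at low sums was thus of the size of counting error, and at high sums the control libraries differed more than the PCBP1-OE libraries. Protein-coding genes with 1000 or more counts had 5.21% in control and 4.44% in PCBP1-OE.

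**Figure D5:**
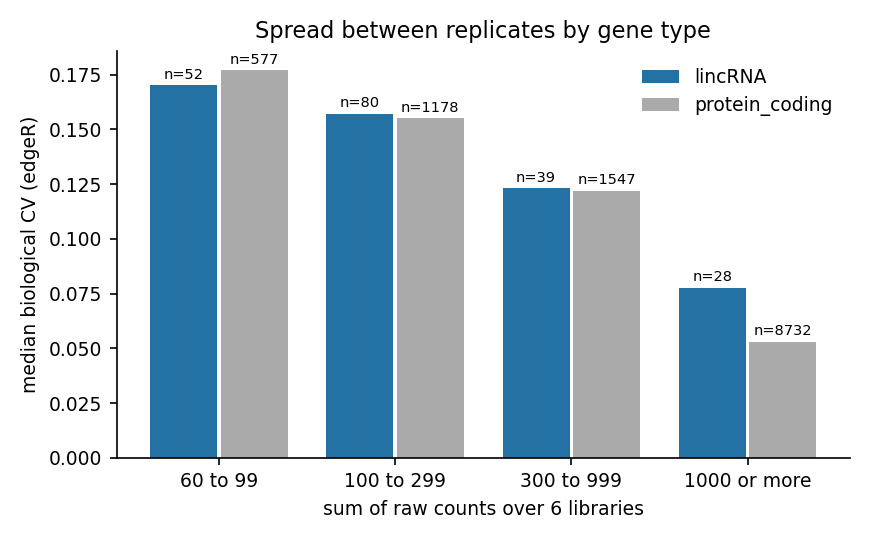
Median biological coefficient of variation of lincRNA genes (blue) and protein-coding genes (grey) in 4 ranges of summed counts, with the number of genes tested above each bar. The bars of the 2 types are alike below 1000 counts, and at 1000 or more they stand at 0.0776 and 0.0529.

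Among single members, AABR07037528.1 had the highest estimate, a coefficient of 0.317. AABR07011682.1 followed with 0.308, from 6, 2 and 17 counts in control and 8, 14 and 19 in PCBP1-OE. AABR07058656.1 had 0.294, from 9, 13 and 16 counts against 27, 27 and 5. In the latter PCBP1-OE replicate 3 was the lowest of all 6 libraries while the other PCBP1-OE libraries were the highest. Rn60_10_0699.2 had 0.265, from 23, 23 and 6 counts against 15, 17 and 13, with control replicate 3 low, and AABR07063613.1 had 0.253. The 5 smallest estimates belonged to members with many reads: Rn60_14_0846.1 with 0.0379, Rn60_13_0828.1 with 0.0384, LOC102549726 with 0.0446, Rn60_1_1359.1 with 0.0470 and AABR07043829.2 with 0.0513. Of these 5, Rn60_1_1359.1 alone was called.

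Shared contig or code names joined 12 members at 6 places, and at no place were both members called. Rn60_X_0635.2 had 133, 141 and 117 counts in control and 121, 86 and 111 in PCBP1-OE, and Rn60_X_0635.3 had 59, 74 and 66 against 46, 40 and 52. Only the latter was without overlap, and the log2 fold changes of -0.28 and -0.50 were not called. Of the other 5 places, those of AABR07058985 and AABR07049695 are given above, and at AABR07016578, AABR07048321 and Rn60_20_0046 no member was called. Members at 1 place share their surroundings and may share reads, so they are not independent.

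Among the members with other names, Dmrtc1b (ENSRNOG00000022286, chromosome X) is a protein-coding gene of the DMRT family in RefSeq, although its type in the table is lincRNA. It had 77, 77 and 88 counts in control and 83, 63 and 79 in PCBP1-OE, and the groups overlapped. LOC102548225 overlaps Ctif, a translation initiation factor gene, on GRCr8. It had 18, 16 and 22 counts against 30, 16 and 10, and these counts are uncertain because the strand setting of the counting is not given in the sources used here. LOC102547954 lies between Zfp830 and Lig3, a DNA ligase gene, and had 7, 11 and 17 counts against 10, 7 and 11. RGD1565058, which lies beside Eda2r, had 117, 87 and 111 counts against 92, 98 and 98, and these members were not called.

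Protein-coding genes that act on long noncoding RNAs were read from the same fit. Of the nuclear exosome and its adaptors, 18 of 19 genes were tested, with 1 called, which was higher, and a median log2 fold change of 0.0014. The called gene was Zfc3h1, an adaptor that brings poly-adenylated nuclear RNA to the exosome. It had 646, 673 and 762 counts in control, against 840, 854 and 723. The groups were apart in CPM, with a log2 fold change of 0.24 ± 0.067 (SE) and an adjusted p of 0.0416 in the quasi-likelihood test of edgeR with Benjamini-Hochberg adjustment. Of the paraspeckle proteins, which gather on the lncRNA NEAT1, 11 of 12 were tested, with 1 called, also higher, and a median of -0.0098. This was Tardbp, which encodes the RNA-binding protein TDP-43, at 105 CPM in control and 117 CPM in PCBP1-OE, with 0.16 ± 0.041 (SE) as its log2 fold change. Of the 3′ end cleavage and polyadenylation factors, 17 of 18 were tested, with 2 called, both higher, and a median of 0.04, beside 0.0029 over all genes tested. Pcf11, a factor of 3′ end cleavage and transcription termination, had 1173, 1131 and 1561 counts against 1747, 1694 and 1462. Its groups did not overlap in CPM, and its log2 fold change of 0.37 ± 0.078 (SE) had an adjusted p of 0.0164 in the quasi-likelihood test of edgeR with Benjamini-Hochberg adjustment. Cstf3, a subunit of the cleavage stimulation factor, went from 48.8 to 58.6 CPM, a log2 fold change of 0.26 ± 0.066 (SE). The adjusted p of Tardbp was 0.0304 and that of Cstf3 was 0.0306 in the same edgeR test with Benjamini-Hochberg adjustment. The calls of Zfc3h1, Tardbp, Pcf11 and Cstf3 were lost without control replicate 1 or 2 or PCBP1-OE replicate 1 or 2, and that of Tardbp also without PCBP1-OE replicate 3. In these omissions the adjusted p of edgeR with Benjamini-Hochberg adjustment lay between 0.0603 and 0.176. The calls were thus 1 of 18, 1 of 11 and 2 of 17 tested genes, beside 9.45% of all genes tested.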

How the data were processed

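RNA-seq of 3 control and 3 PCBP1-OE libraries was used, each matched to its group by its label. The values are unnormalised gene-level read counts, as deposited. By the methods, TopHat2 placed clean reads on Rnor_6.0 and uniquely mapped reads were counted, while the submitters' processing notes name GRCh38. The gene identifiers are those of rat. Which tool counted the reads, and with which strand setting and annotation release, is not given in the sources used here.

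All genes were fitted with edgeR 4.0.16 (R 4.3.3), using TMM scaling, filterByExpr (minimum count 10, minimum total count 15) and the quasi-likelihood test, which tested 12624 genes. P-values were adjusted over all of them by the Benjamini-Hochberg method, and SE is the log2 fold change over the root of F. The fit was also run on simulated data, which checks the code and not the calls in these libraries. Groups that do not overlap were judged on TMM-scaled CPM. Depth limits precision, since a member with 60 counts has about 10 per library. Members and lists were chosen with earlier results of these data known. Named genes were the 12 members with the highest mean CPM, all DEGs, up to 10 called increases and 10 decreases without overlap, the 8 largest shares in 1 library, members with a gene symbol, the 2 rows on each side of the sum of 60, 5 lincRNA rows from the study's list, the 5 largest and 5 smallest dispersions and called list genes. Other genes named were chosen after their values were seen. Alternatives were RLE and upper-quartile scaling, other filters, DESeq2 1.42.0, the exact test, limma-voom (limma 3.58.1), a replicate block and leaving out each library. RefSeq GRCr8 gave names, neighbours and promoters.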

Additional observations from a re-analysis of the deposited data

How the results depend on the processing

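Of 4 members called, the number was 8 with no filter, where 20609 genes were tested. It was 3 to 6 with the other scalings, filter and tools. These counts are over unlike sets, since DESeq2 gave an adjusted p for 94 members and the other filter tested 129. Leaving out 1 library gave 0 to 10, with 1 fewer sample in the fit. Of 1 member called at 2-fold, the number was 2 with no filter, 2 in the exact test and 0 to 2 with a library left out. The median log2 fold change of the members was 0.024 with a filter of at least 1 CPM in 3 libraries, which tested 129 members, and 0.017 to 0.11 with a library left out. The lincRNA share of counts differed by 0.00407 to 0.00906 percentage points with a library left out, and 0 members had more than 50% of counts in 1 library by CPM. The causes were not tested.

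With the replicate number as a block, 0 members were called at an FDR of 0.05 and 0 at 2-fold, and 16 genes in all, with an unadjusted p below 0.05 for 13 members. The block also ended the calls of Zfc3h1, Tardbp, Pcf11 and Cstf3, with adjusted p of 0.150, 0.139, 0.113 and 0.133 in edgeR with Benjamini-Hochberg adjustment. Libraries of the same number did not deviate together (correlations of -0.104, -0.0814 and -0.107 across genes), so the numbers were not taken to pair them, and no library correlated best with its own number.

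Of 32 named genes tested, 8 changed sign in at least 1 setting. None of these 8 was called with all 6 libraries in the main setting, and AABR07052758.1 was called without control replicate 3. Rn60_10_0699.2 had a log2 fold change of 0.0665 in limma-voom. With a library left out, these 8 ran from -0.638 to 0.116 for Rn60_10_0699.2, -0.141 to 0.0108 for AABR07052758.1, -0.0582 to 0.0973 for AABR07019088.1, -0.0860 to 0.0410 for AABR07053749.1, -0.129 to 0.0448 for AC105470.1, -0.0726 to 0.00864 for AABR07043829.2, -0.150 to 0.0191 for Dmrtc1b and -0.563 to 0.179 for AABR07033249.1. The cause was not tested. Of the other values of named genes, 356 kept direction and side of the threshold, 43 lost the call and 7 gained it, and 13 had no adjusted p in DESeq2 and were not counted. Named genes that did not pass the filter of at least 1 CPM in 3 libraries had no value in that setting.

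Depth limits members with few reads: at sums of 60 to 99, counting error alone is 28.3% per library.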
